A study of Homo sapiens with 6 samples.

Results

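The 10 genes described here encode factors that cut nascent transcripts at their 3′ end, add the poly(A) tail and release RNA polymerase II. They were chosen by name (CPSF1, CPSF3, CPSF4, CPSF6, CPSF7, NUDT21, CSTF2, CSTF3, PCF11 and XRN2), with earlier results of these data known. Each symbol matched 1 of the 60605 gene rows of the count table. All 10 passed the filter on low counts, which left 17371 genes. The levels come from polyadenylated RNA of HuCCT-1 cells, an established line grown from a human bile duct cancer (cholangiocarcinoma). For 4 days 3 samples received 6 nM of the PRMT5 inhibitor JNJ-64619178, and 3 received the solvent DMSO in equal volume. These 2 groups are called JNJ and DMSO, and both are the same cell line in the same medium, so a single line stands for the cancer. The series asked what PRMT5 inhibition does to gene expression in this cancer, and JNJ against DMSO is the comparison it allows.

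The 3′ end of most messenger RNAs is made by several complexes that assemble on the nascent transcript. The cleavage and polyadenylation specificity factor (CPSF) recognises the AAUAAA signal and cuts downstream of it, the cleavage stimulation factor (CstF) binds GU-rich sequence beyond the cut, and cleavage factor I (CFIm) binds UGUA upstream and influences which of several sites in a gene is used. Cleavage factor II (CFIIm) links the complex to the polymerase, and the exonuclease XRN2 degrades the RNA that is still attached after the cut, which helps to end transcription. PRMT5, an arginine methyltransferase, places symmetric methyl marks on arginine, mostly in RNA-binding and histone proteins.

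The sites that these factors act on can be read at the annotated ends of their own messages. The windows below are shown because CFIm subunits moved apart in the data, and CPSF3 encodes the nuclease that cuts. Each is 30 bases of the annotated transcript (GENCODE 29, GRCh38, read 5′ to 3′ on the gene's strand, T for U), with the hexamer read by CPSF in capitals.
CPSF7, chr11:61402659-61402688, minus strand: atatttttaaatAATAAAtggggtgtgagc
CPSF6, chr12:69274324-69274353, plus strand: tcttgtattgaaAATAAAacaaacttttga
NUDT21, chr16:56429138-56429167, minus strand: tattgtcatttcAATAAAaaatatttgaaa
CPSF3, chr2:9473062-9473091, plus strand: tttgttacctaaAATAAAatgcattcgttt
The hexamer AATAAA was searched in the last 50 bases of 1 transcript per gene, and ATTAAA where it was missing, on the transcript's strand only. Of the 10 members 7 held AATAAA (the 4 above, CSTF2, CSTF3 and XRN2), CPSF4 held ATTAAA, and the transcripts used for CPSF1 and PCF11 held neither. In the 4 genes shown AATAAA began 23 to 28 bases before the annotated end. Among all 83129 protein-coding transcripts 35.5% held AATAAA there and a further 8.69% held ATTAAA. The members' transcripts were picked among those with complete annotated 3′ ends, and the 83129 were not, so these shares are no like background. The motif TGTA, which CFIm binds as UGUA, occurred 3 times in the 100 bases before the hexamer of CPSF7, 2 times in those of NUDT21 and CPSF3, and 1 time in that of CPSF6. Of the other members with a hexamer, CSTF3 held it 3 times, CSTF2 and XRN2 1 time each and CPSF4 0 times. Among all transcripts with a hexamer, 53.9% held TGTA in that window. Counts per gene do not tell which site was used, so the data give no measure of site choice.

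The libraries held 28133746 to 30691914 counts with DMSO and 23931991 to 28224911 with JNJ. The labels do not say whether replicates came from separate cultures, so p-values measure only how far these samples differ, and that spread may be technical. All 7 markers of biliary epithelium checked were present, with a summed level of 5632 to 5905 CPM (counts per M counts of TMM-scaled library size) with DMSO and 4556 to 4824 CPM with JNJ. Markers of leukocytes, fibroblasts, endothelium and hepatocytes summed to at most 1.67 CPM per list in any library, and the hepatocyte marker TTR was at 0 in all 6. Most of the lower biliary sum was KRT7, at 3559 to 3756 CPM with DMSO and 2732 to 2926 with JNJ. KRT18 (630 to 662 CPM with DMSO against 498 to 543 with JNJ), KRT19, KRT8 and EPCAM were also lower in every JNJ library. SOX9 lay higher with JNJ (58.6 to 61.0 against 65.7 to 70.1 CPM), and CDH1 overlapped between the groups. The part of these differences in the results below was not tested.

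With JNJ, CPSF7, CPSF1 and CPSF3 rose and CPSF6 and PCF11 fell, by at most 1.32-fold. By edgeR's quasi-likelihood test at an adjusted p under 0.05 these were 5 of the 10 genes, 3 higher and 2 lower. CPSF7, CPSF1 and CPSF6 passed in all 13 alternative analyses, whereas CPSF3 lost its call in 9 (adjusted p = 0.0611 with the replicate block) and PCF11 in 3. Over all genes tested 37.1% were called, 20% higher and 17.1% lower, and of the better-counted genes exceeding 1 CPM 42.9%. A list of 10 has few members to set beside these shares, and no enrichment was tested. CPSF4, NUDT21, CSTF2, CSTF3 and XRN2 did not pass. The median log2 fold change of the 10 was -0.06, against 0.0014 over all genes. Their median size without sign was 0.16, against 0.21 over all genes. In 4 of the 10 every JNJ library exceeded every DMSO library, which held for 24.7% of all genes, and in 4 each was lower, which held for 22.2%; together these patterns covered 47% of all genes.

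**Figure D1:**
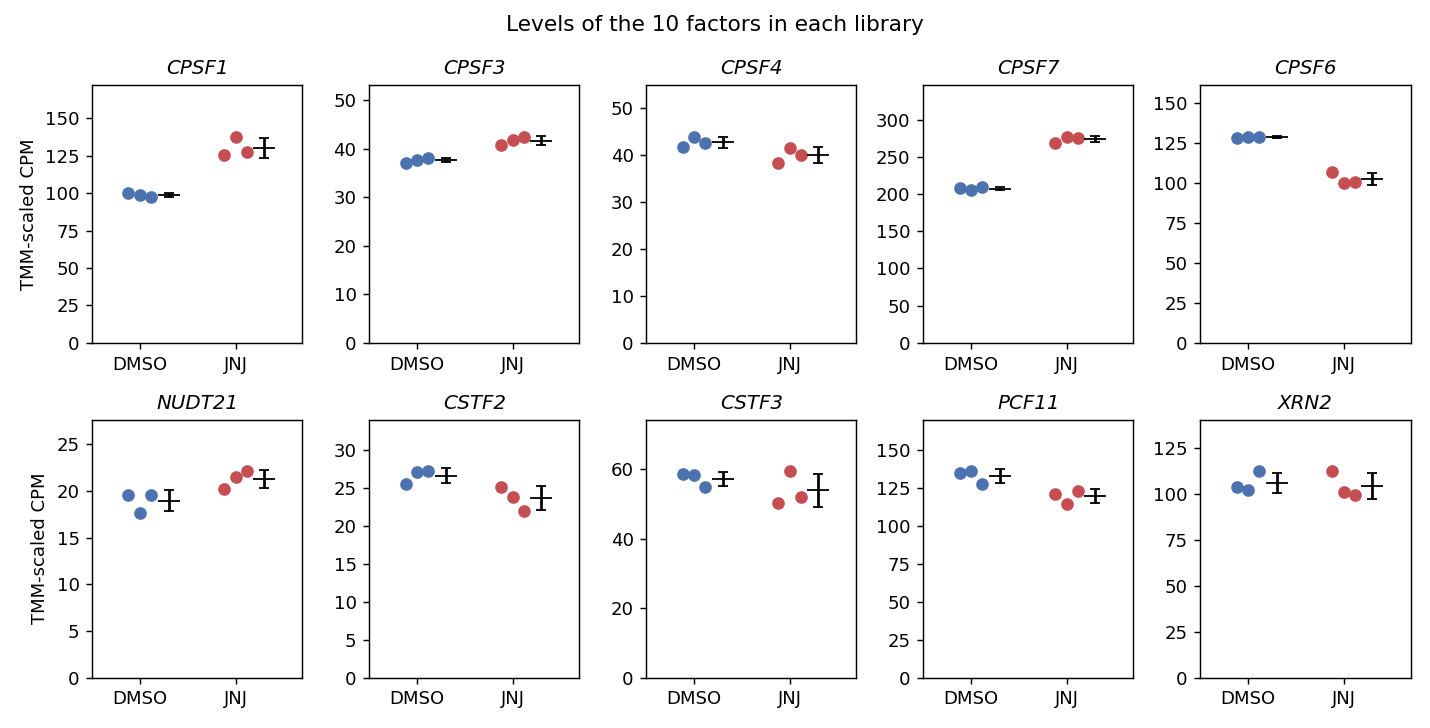
Levels of the 10 genes in TMM-scaled CPM (vertical axes from 0) in each of the 3 DMSO and 3 JNJ libraries (points), with mean and SD (black). CPSF7 and CPSF1 lie higher and CPSF6 lower in all 3 JNJ libraries, and the groups overlap for CSTF3 and XRN2.

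CFIm is built from a pair of NUDT21 subunits, which bind UGUA, and larger subunits encoded by CPSF6 or CPSF7. The messages for the larger subunits moved in opposite directions. CPSF7 (ENSG00000149532, chromosome 11, 61402641 to 61430031 on GRCh38) stood at 208, 205 and 209.6 CPM with DMSO and at 269, 277 and 276 CPM with JNJ. Every JNJ library was above every DMSO library, and the gap was many times the spread within a group. The rise was 1.32-fold (log2 fold change 0.40, SE 0.04, edgeR adjusted p = 5.51e-08). It rested on 5658 to 7922 reads per library and passed in all 13 alternative analyses. An opposite-strand gene, AP003108.2, shares 85 exonic bases with CPSF7 (1.41% of its exonic length) and was at 3.26 ± 0.10 CPM with DMSO and 4.56 ± 0.25 with JNJ (SD, n = 3).

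CPSF6 (ENSG00000111605, chromosome 12, 69239537 to 69274358), which encodes the other larger subunit, stood at 128, 129 and 129 CPM with DMSO and at 107, 100.1 and 101 CPM with JNJ. All JNJ libraries were lower, and the DMSO libraries lay within about 1 CPM of each other. The fall was by 0.33 on the log2 scale (SE 0.05, edgeR adjusted p = 3.35e-06), from 2375 to 4015 reads per library, and passed in all 13 alternatives. NUDT21 (ENSG00000167005, chromosome 16, 56429133 to 56452199) stood at 19.6, 17.6 and 19.6 CPM with DMSO and at 20.2, 21.6 and 22.1 CPM with JNJ. Its JNJ libraries were all above its DMSO libraries, yet it did not pass (log2 fold change 0.17, SE 0.07, edgeR adjusted p = 0.0776). It passed in 1 of 13 alternatives, the fit without JNJ replicate 1 (0.20, edgeR adjusted p = 0.0489).

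The ratio of CPSF7 to CPSF6 reads within a library does not depend on how libraries are scaled to each other. It was 1.62, 1.59 and 1.63 in the DMSO libraries and 2.52, 2.77 and 2.74 in the JNJ libraries, with no overlap. The mean ratio went from 1.61 ± 0.02 to 2.68 ± 0.14 (SD, n = 3), which is 1.66-fold higher with JNJ (log2 difference 0.73). The exact two-sided permutation test gave p = 0.1, the smallest that 3 against 3 libraries allow, and 0.1 adjusted over the 2 ratios tested. Since the JNJ libraries were all above for CPSF7 and all below for CPSF6, the ratios had to separate, which fixed this p in advance. This ratio is of reads and is not corrected for the different lengths of the messages.

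**Figure D2:**
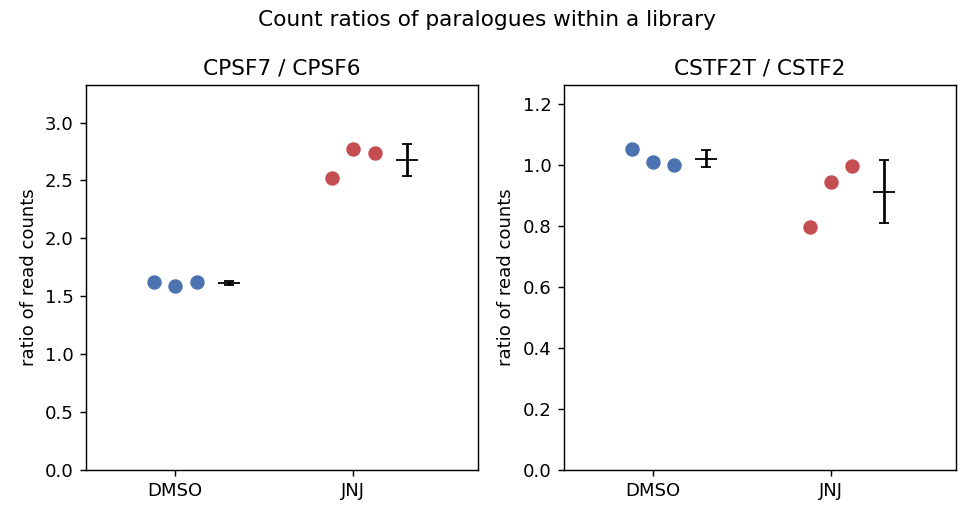
Ratio of read counts of CPSF7 to CPSF6 (left) and of CSTF2T to CSTF2 (right) in each library (points), with mean and SD (black), on linear axes from 0. The CPSF7 to CPSF6 ratio was 1.59 to 1.63 with DMSO and 2.52 to 2.77 with JNJ, while for CSTF2T to CSTF2 the groups lay close together.

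Sequence upstream of the RefSeq start sites of this diverging pair is shown to set the members that moved apart side by side; the motifs were chosen after these promoters had been seen. The sequences come from RefSeq's promoter table on GRCh38.p14, in which 9 of the 10 genes matched; CPSF1 was not among them. CPSF6 is given by the upstream bases outside annotated exons, and CPSF7, whose upstream window is largely covered by exons of other annotated transcripts, by 30 bases. Capitals mark matches to the motifs searched.
CPSF7, chr11:61430015-61430044, minus strand: tgcgtccctgCGCATGCCGGAAGtggcggt
CPSF6, chr12:69239319-69239536, plus strand: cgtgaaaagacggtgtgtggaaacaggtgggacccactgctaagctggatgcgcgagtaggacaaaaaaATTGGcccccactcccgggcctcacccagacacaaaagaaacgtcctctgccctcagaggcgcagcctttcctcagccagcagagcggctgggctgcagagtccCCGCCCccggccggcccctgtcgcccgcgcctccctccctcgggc
Part of the CPSF7 stretch, the marked CCGGAAG included, lies inside the gene span given above from GENCODE 29, which starts further upstream than the RefSeq entry. In CPSF7 the capitals hold CGCATGC, part of the site of the factor NRF1, which shares its last C with CCGGAAG, the core bound by ETS factors. In CPSF6 they hold CCAAT and GGGCGG (the GC box), both on the reverse strand. Over the whole 250 bases upstream and on both strands, CCGGAAG was in 5 of the 9 genes (CPSF3, CPSF7, CSTF2, CSTF3 and NUDT21) and in 10.2% of all 27305 genes of the table. CGCATGC was in CPSF7 alone of the 9 and in 4.16% of all genes. GGGCGG was in 7 of the 9 (46.2% of all genes), CCAAT in 5 (37%), TGACG, half-site of the cAMP response element, in 6 (24.9%) and TATAAA in 0 (13%). These 9 upstream windows were 58.8% to 72% G and C, against a median of 58% over all genes. The 27305 genes were matched neither for this nor for being expressed in these cells, so their shares are no like background. The genes with CCGGAAG include both called and uncalled ones, and a match is a description of letters.

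In CPSF itself, CPSF1 rose and CPSF3 rose slightly. CPSF1, the largest subunit and a scaffold of the complex (ENSG00000071894, chromosome 8, 144393229 to 144409349), stood at 100.4, 99.0 and 97.3 CPM with DMSO and at 126, 138 and 127 CPM with JNJ. All JNJ libraries were above, with JNJ replicate 2 the highest. The rise was 1.32-fold (log2 fold change 0.40, SE 0.05, edgeR adjusted p = 3.48e-07) and passed in all 13 alternatives.

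CPSF3, the endonuclease that makes the cut (ENSG00000119203, chromosome 2, 9423568 to 9473101), stood at 37.1, 37.7 and 38.1 CPM with DMSO and at 40.7, 41.8 and 42.5 CPM with JNJ. The groups did not overlap, but the step was small, 1.11-fold (log2 fold change 0.15, SE 0.05, edgeR adjusted p = 0.0382). It lost its call in 9 of 13 alternatives, with upper-quartile scaling (0.09, edgeR adjusted p = 0.225), DESeq2 (adjusted p = 0.0935), no filter on low counts (edgeR adjusted p = 0.142) and the replicate block (edgeR adjusted p = 0.0611) among them. The other 5 left out DMSO replicate 1, 2 or 3 (edgeR adjusted p = 0.132, 0.118 and 0.0804) or JNJ replicate 2 or 3 (0.062 and 0.128). Over the alternatives its adjusted p ranged from 0.0335 to 0.225.

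CPSF4, a zinc finger subunit that contacts the AAUAAA signal (ENSG00000160917, chromosome 7, 99438922 to 99457371), stood at 41.7, 44.0 and 42.7 CPM with DMSO and at 38.3, 41.6 and 40.1 CPM with JNJ. The groups were separated by 0.1 CPM only, and the gene did not pass (log2 fold change -0.10, SE 0.06, edgeR adjusted p = 0.185). It passed with upper-quartile scaling (-0.15, edgeR adjusted p = 0.0314). Of the rest of CPSF, WDR33, which recognises the AAUAAA signal with CPSF4, rose (log2 fold change 0.19, edgeR adjusted p = 0.00646), and the remaining 2 genes of the complex did not pass. WDR33 shares 25.6% of its exonic length with an opposite-strand gene. It lost its call with upper-quartile scaling (0.13, edgeR adjusted p = 0.0519) and without DMSO replicate 3.

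The members of CstF lay lower without passing the test. CSTF2, which binds the GU-rich sequence beyond the cut (ENSG00000101811, chromosome X, 100820359 to 100840932), stood at 25.5, 27.1 and 27.2 CPM with DMSO and at 25.1, 23.8 and 22.0 CPM with JNJ. The JNJ libraries were all below the DMSO libraries, JNJ replicate 1 by less than 1 CPM. The log2 fold change was -0.17 (SE 0.07, edgeR adjusted p = 0.0516), close to the threshold, and 5 of 13 alternatives put it past it (adjusted p over all 13 from 0.00873 to 0.239). CSTF3, which holds CstF together (ENSG00000176102, chromosome 11, 33077188 to 33162371), stood at 58.6, 58.2 and 54.8 CPM with DMSO and at 50.4, 59.4 and 52.0 CPM with JNJ. JNJ replicate 2 was the highest of all 6 libraries, so the groups overlapped. Opposite-strand genes share 8.69% and 5.83% of its exonic length. It did not pass (log2 fold change -0.08, SE 0.06, edgeR adjusted p = 0.294). Without JNJ replicate 2 the fall passed (-0.16, edgeR adjusted p = 0.0251).

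The other genes of CstF went apart. CSTF1, the third subunit of the complex, rose from 29.5 ± 0.99 to 41.5 ± 2.41 CPM (SD, n = 3), by 0.49 on the log2 scale (SE 0.06, edgeR adjusted p = 5.79e-07). CSTF2T, an intronless paralogue of CSTF2 on chromosome 10, went from 27.1 ± 0.27 down to 21.4 ± 1.27 CPM (-0.34 on the log2 scale, SE 0.07, edgeR adjusted p = 0.000285). The ratio of CSTF2T to CSTF2 reads was 1.05, 1.01 and 0.999 with DMSO and 0.796, 0.944 and 0.994 with JNJ. The groups were separated by less than 0.01, the log2 difference was -0.17, and the exact two-sided permutation p was 0.1 (0.1 adjusted over 2 ratios), the smallest possible here. Reads of near-identical stretches of the 2 genes could be shared, since it is not known here how multiply mapping reads were counted.

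PCF11, the CFIIm subunit that binds the tail of the polymerase and is needed for termination (ENSG00000165494, chromosome 11, 83156988 to 83187451), stood at 135, 136 and 128 CPM with DMSO and at 121, 115 and 123 CPM with JNJ. All JNJ libraries were lower, but the gap between the groups was smaller than the range within either. The fall was by 0.15 on the log2 scale (SE 0.05, edgeR adjusted p = 0.0141), and it did not pass without DMSO replicate 1 (edgeR adjusted p = 0.0514), DMSO replicate 2 (0.0707) or JNJ replicate 2 (0.0535). CLP1, an RNA kinase and PCF11's partner in CFIIm, rose from 14.7 ± 0.99 to 17.99 ± 0.45 CPM (SD, n = 3; log2 fold change 0.30, SE 0.08, edgeR adjusted p = 0.00413). It shares 9.6% of its exonic length with the opposite-strand gene YPEL4.

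Non-coding transcripts that overlap PCF11 fell much more than the gene itself. PCF11-AS1, annotated on the opposite strand with 1516 exonic bases in common (15.2% of PCF11's exonic length), fell from 4.49 ± 0.21 to 1.89 ± 0.09 CPM (SD, n = 3), by 1.24 on the log2 scale (SE 0.17, edgeR adjusted p = 2.12e-06). AP000873.2, also opposite, with 175 bases in common, fell by 1.22 (SE 0.14, edgeR adjusted p = 2.99e-07). AP000873.4, on the same strand with 188 bases in common, fell by 0.93 (SE 0.32, edgeR adjusted p = 0.0246). It was at only 0.99 ± 0.06 CPM with DMSO. The library kit marks strand, but no source used here gives the strand setting of the counting, so reads of these transcripts and of PCF11 cannot be fully told apart. Strand could not separate shared reads of AP000873.4 and PCF11 in any case. These transcripts were named after their values were seen.

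XRN2, the 5′ to 3′ exonuclease of the termination step (ENSG00000088930, chromosome 20, 21303304 to 21389827), stood at 104, 102 and 113 CPM with DMSO and at 113, 101 and 99.7 CPM with JNJ. JNJ replicate 1 lay among the DMSO libraries, close to DMSO replicate 3, and the other JNJ libraries lay below all of them. The log2 fold change was -0.03 (SE 0.05, edgeR adjusted p = 0.726), 0.0048 without DMSO replicate 3 and 0.0051 without JNJ replicate 3, and it passed in 0 of 13 alternatives. The unadjusted p was 0.612.

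The wider pathway was described with a list of 47 genes that holds the 10 members, and all 47 were tested. This list was chosen with earlier results of these data known, so its share of calls is a description and no test. Of the 47, 17 rose and 7 fell, together 51.1%, against 37.1% of all genes and 42.9% of the better-counted genes exceeding 1 CPM. The median log2 fold change of the 47 was 0.04. With upper-quartile scaling 11 were higher and 13 lower, so which direction prevailed changed with the scaling. Over all genes the same change took the share of higher calls from 53.9% to 40.6%, and the median log2 fold change from 0.0014 to -0.06. Of the 37 that are no members, 14 rose and 5 fell.

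**Figure D3:**
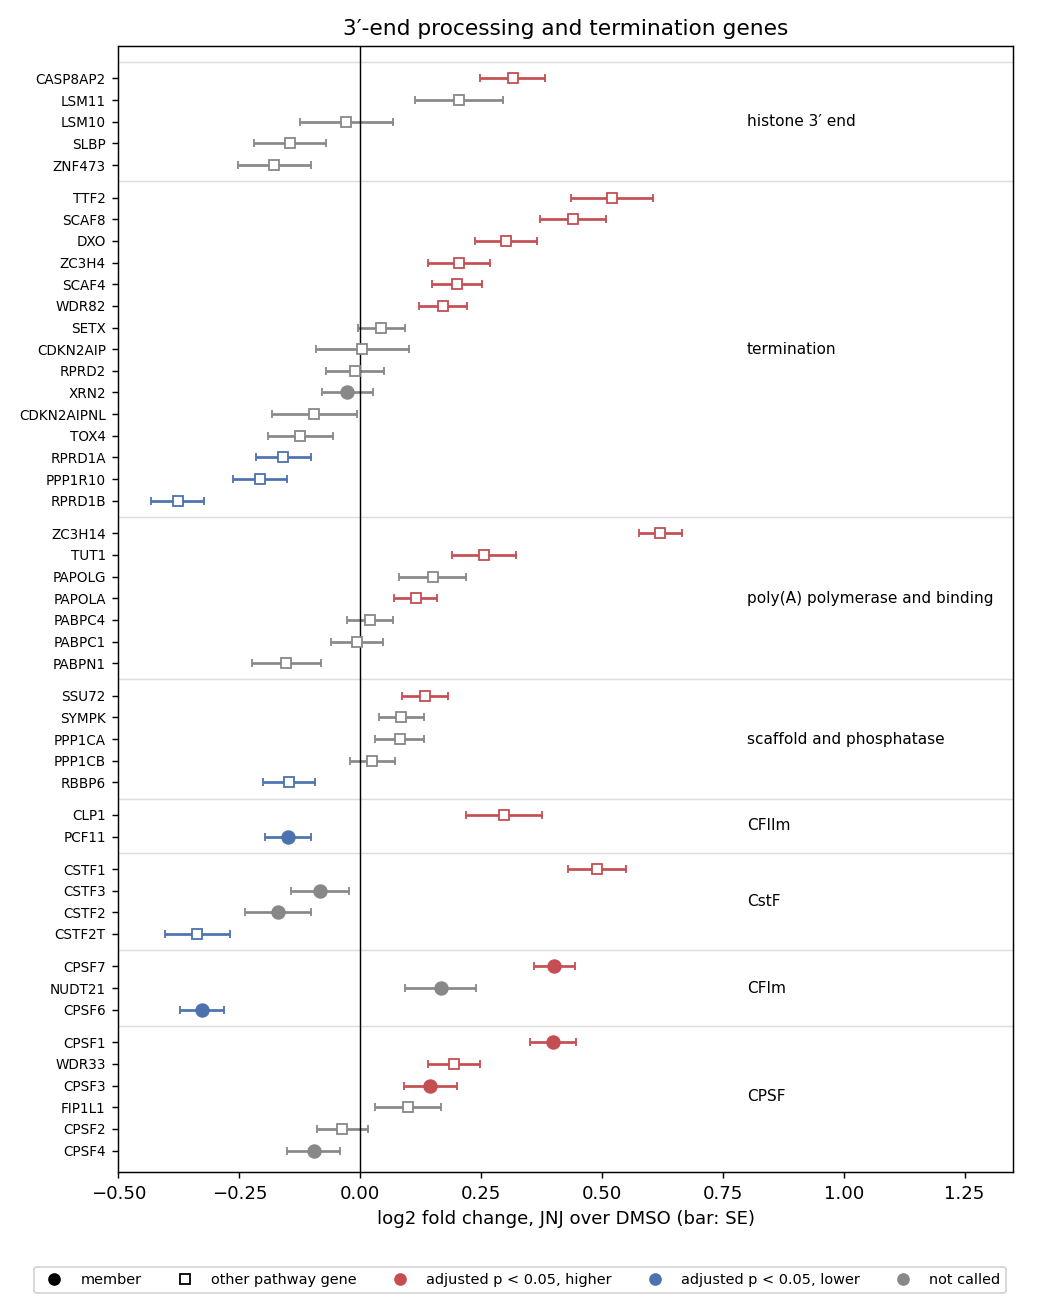
Log2 fold change, JNJ over DMSO (horizontal axis, bars are SE), of 47 genes of 3′-end processing and termination, grouped by complex or step. Filled circles are the 10 members and open squares the other 37; red marks genes called higher, blue lower and grey not called. CPSF7 and CPSF6 lie on opposite sides of 0, as do CSTF1 and CSTF2T.

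Among genes of the poly(A) tail, 3 of 7 rose and 0 fell. These are 42.9% called, against 37.1% of all genes and 42.9% of the better-counted genes exceeding 1 CPM. ZC3H14, a nuclear poly(A)-binding protein, rose from 151 ± 4.10 to 232 ± 7.23 CPM (SD, n = 3; log2 fold change 0.62, SE 0.04, edgeR adjusted p = 8.34e-11), which exceeds the change of any of the 10 members. TUT1, a poly(A) and U6 RNA uridylyl polymerase, rose by 0.26 on the log2 scale (edgeR adjusted p = 0.00331). ZC3H14 shares 27.7% of its exonic length with an opposite-strand gene and TUT1 40.4% with a same-strand one, so their counts are less certain.

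Of the 15 termination genes, XRN2 included, 6 rose and 3 fell. This is 60% called, against 37.1% of all genes (20% higher, 17.1% lower) and 42.9% of the better-counted genes exceeding 1 CPM. SCAF8 (0.44, edgeR adjusted p = 1.55e-05) and SCAF4 (0.20, edgeR adjusted p = 0.00305), which bind the polymerase tail and suppress early polyadenylation, both rose. SCAF8 shares 13% of its exonic length with the same-strand gene TIAM2, so its count is less certain. TTF2, a factor that releases the polymerase from DNA, rose by 0.52 (edgeR adjusted p = 3.00e-05). WDR82 (0.17, edgeR adjusted p = 0.00826) and ZC3H4 (0.20, edgeR adjusted p = 0.0147), partners in a complex that restricts non-coding transcription, rose. Both lost the call with upper-quartile scaling (edgeR adjusted p = 0.0744 and 0.0759), WDR82 also without DMSO replicate 2, and ZC3H4 also without DMSO replicate 1 or 3.

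RPRD1B, which binds the polymerase tail, fell from 55.4 ± 2.40 to 42.6 ± 1.97 CPM (SD, n = 3; log2 fold change -0.38, SE 0.06, edgeR adjusted p = 7.05e-06). It shares 394 exonic bases with the opposite-strand gene TGM2, at 1906 ± 118 CPM with DMSO and 1747 ± 78.7 CPM with JNJ, so strand matters for its count. PPP1R10, a regulator of a phosphatase that acts in termination, fell by 0.21 (edgeR adjusted p = 0.00477). DXO, which removes faulty caps, rose by 0.30 (edgeR adjusted p = 0.000584) and shares 646 exonic bases with the opposite-strand gene STK19, which rose by 0.82. Among the 5 genes of histone 3′ ends, which are made without a poly(A) tail, CASP8AP2 rose (0.32, edgeR adjusted p = 0.000704) and the other 4 did not pass (20% called). Of the 5 scaffold and phosphatase genes 1 rose and 1 fell, which at 40% called is near the 37.1% of all genes.

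Levels were compared between genes as CPM per kilobase of merged exons in GENCODE 29. With DMSO CPSF7 had the highest level of the 10, 34.4 ± 0.39, followed by XRN2 with 30.9 ± 1.58 (SD, n = 3). CPSF1 (16.3 ± 0.25), CPSF6 (15.9 ± 0.08), PCF11 (13.4 ± 0.46), CSTF3 (12.7 ± 0.47), CSTF2 (12.2 ± 0.44), CPSF4 (10.1 ± 0.27) and CPSF3 (9.99 ± 0.13) came next, and NUDT21 was lowest at 3.18 ± 0.19. In this order PCF11 and CSTF3, CSTF3 and CSTF2, and CPSF4 and CPSF3 overlapped between neighbours. With JNJ CPSF7 stood at 45.4 ± 0.76, CPSF1 at 21.5 ± 1.08 and CPSF6 at 12.7 ± 0.46, and CPSF6 then overlapped with PCF11 (12.05 ± 0.45). CPSF3, at 11.1 ± 0.25, passed from the ninth place to the seventh. There it overlapped with both its neighbours, CSTF3 and CSTF2, so this change of place is not resolved. Merged exons include alternative and long 3′ ends that these cells may not use, which lowers the value of genes with long annotated ends.

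**Figure D4:**
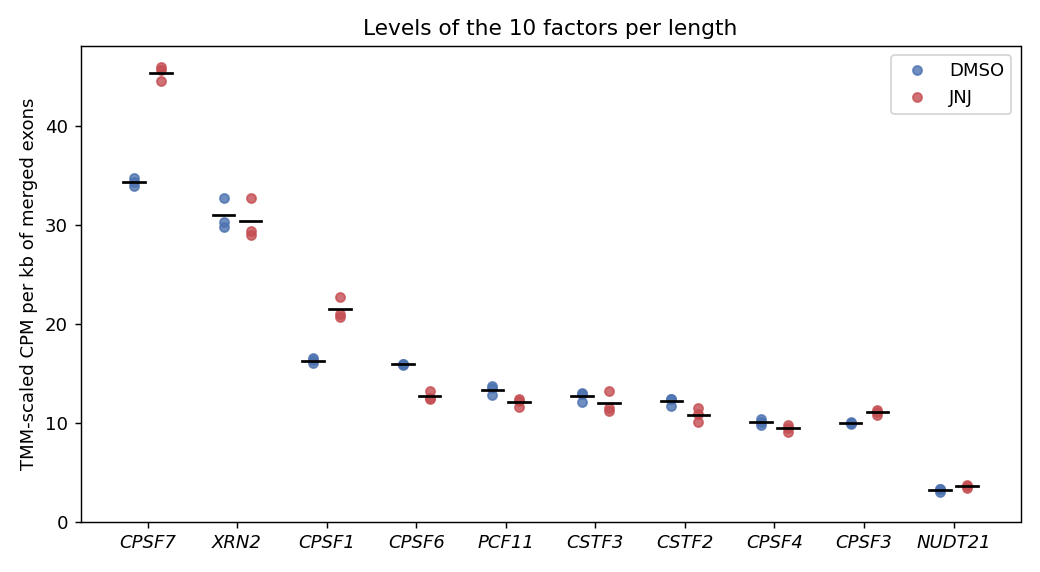
TMM-scaled CPM per kilobase of merged exons (vertical axis, linear from 0) of the 10 genes, ordered by the DMSO mean, in each DMSO (blue) and JNJ (red) library, with the group means as black lines. CPSF7 is highest in both groups, CPSF1 and CPSF6 are close together with DMSO and apart with JNJ.

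To place the diverging pair among all genes, the genes with the most similar pattern over the 6 libraries were taken by Euclidean distance of centred log2 CPM, from 9654 genes. Nearest to CPSF7 were EDEM1 (distance 0.04; log2 fold change 0.43), GRB10 (0.05; 0.40) and FBLIM1 (0.05; 0.42). Nearest to CPSF6 were UBE4B (0.03; -0.34), ZNF33B (0.03; -0.32) and TCEA1 (0.03; -0.33). These genes were picked for their likeness in the same libraries, so their similar fold changes follow from the choice.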

How the data were processed

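Raw gene counts without normalization were deposited in 1 table for 6 libraries of a stranded polyadenylated RNA kit (per the labels' protocols). STAR 2.7.9a and featureCounts 1.6.0 are named, without roles, per the submitters' processing notes, beside FastQC 0.11.8, limma and edgeR. The only build named there is GRCm39, of mouse, although the rows are human Ensembl genes, so the build is uncertain. No source used here gives the strand setting or annotation. Of 60649 rows, 44 repeated identifiers at a count of 0 were dropped, and 60463 of 60605 genes matched a symbol.

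Genes were filtered with filterByExpr (minimum count 10, minimum total 15) and scaled by TMM. JNJ and DMSO were compared with edgeR 4.0.16 (glmQLFit, glmQLFTest, group only), adjusted by Benjamini-Hochberg over all 17371 genes at 0.05. SE is the size of the log2 fold change divided by the square root of F. CPM uses TMM-scaled library sizes. Within groups, no pair of libraries was a duplicate (chi-square over its degrees of freedom, 2.68 to 8.93). Positions and lengths are from GENCODE 29. Scripts were tested on simulated data.

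Alternatives were DESeq2 1.42.0, limma-voom (limma 3.58.1), RLE and upper-quartile scaling, no filter, CPM above 1 in 3 libraries, the replicate number as a block, and leaving out each library. R 4.3.3 was used. All members are named; of the other pathway genes the 15 with the smallest p past the threshold. The members and lists were chosen with earlier results of these data known. Protein sequences were not used here.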

Additional observations from a re-analysis of the deposited data

How the results depend on the processing

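CPSF7, CPSF1 and CPSF6 kept direction and call in all 13 alternatives, with log2 fold changes of 0.34 to 0.42 (CPSF7), 0.34 to 0.43 (CPSF1) and -0.39 to -0.31 (CPSF6). With upper-quartile scaling CPSF3 (0.087) lost its call and CPSF4 (-0.15) and CSTF2 (-0.23) gained one; 4 members were then lower in place of 2, and the pathway list had 11 higher and 13 lower. CPSF3 also lost its call with DESeq2 (0.14), with no filter (0.13) and with the replicate block (0.15, adjusted p = 0.0611). CSTF2 passed with RLE scaling (-0.18) and with the filter of CPM above 1 (-0.17). Leaving out each library in turn gave 0.13 to 0.16 for CPSF3, 0.11 to 0.20 for NUDT21, -0.21 to -0.12 for CSTF2, -0.16 to -0.035 for CSTF3, -0.19 to -0.12 for PCF11 and -0.083 to 0.0051 for XRN2, which changed sign without DMSO replicate 3 (0.0048) or JNJ replicate 3 (0.0051). Members called lower numbered 1 to 3 there. The CPSF7 to CPSF6 log2 difference was 0.70 to 0.77, that of CSTF2T to CSTF2 -0.23 to -0.07. Causes of these changes were not tested.

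Libraries of the same number did not deviate together (correlations -0.02, -0.01 and 0.00). Such correlations cannot tell whether samples of the same number were cultured or prepared together. With the replicate block 3311 genes were higher and 2821 lower, against 3478 and 2970 without it. The same alternatives were run on the other named pathway genes, the genes nearest in pattern and some of the overlapping genes after seeing the data. Of the 15 named pathway genes 12 kept their call in all 13, and 0 changed sign. The members' lowest count was 487 reads (NUDT21).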
